A study of Mus musculus with 96 samples.

Results

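The translation initiation factors were taken as the genes whose symbol begins with Eif and a digit, with TPM above 0 in at least 5 cells. Of 54 such symbols among the 24057 genes of the deposited table, 51 were members. Eif2s3y and Eif5a2 had no read in any of the 95 cells kept, which allows a share of up to 3.16% of cells with a read, and Eif4e1b had reads in 1 cell. Just inside the limit were Eif4e3 with reads in 15 cells, Eif4ebp3 in 32 and Eif3j1 in 33. By number of the factor, 5 members belonged to Eif1, 14 to Eif2, 13 to Eif3, 15 to Eif4, 3 to Eif5 and 1 to Eif6.

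Single cell RNA-seq was performed on EL4 cells, a T-lymphoma line from a C57BL/6 mouse (C57BL/6 N in the study's methods), to compare cell-to-cell variation with and without knockdown of Ctcf, which encodes a zinc-finger protein of chromatin architecture. WT cells carried an shRNA against luciferase (cultures shLuc #1 and shLuc #2) and CTCF-KD cells an shRNA against Ctcf (cultures shCTCF #1 and shCTCF #2). All cells had been infected with viral particles, and infected cells were sorted by GFP. The #1 cultures formed experiment 1 and the #2 cultures experiment 2. The cells of each culture were captured on a Fluidigm C1 circuit of their own, so that effects of condition, culture and circuit cannot be told apart within an experiment. The sources do not settle whether the shCTCF cultures differ in their hairpin. Cells of 1 culture are not independent replicates, so conditions were compared over 2 cultures each.

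Translation initiation loads a ribosome at the start codon of an mRNA. The eIF4F factors (cap-binding eIF4E, scaffold eIF4G and helicase eIF4A) bring the mRNA to the small ribosomal subunit, which carries the large eIF3 complex, eIF1, eIF1A and the ternary complex of eIF2, GTP and initiator tRNA. eIF5 triggers GTP hydrolysis by eIF2, eIF5B joins the large subunit, and eIF2B reloads eIF2 with GTP. The eIF2 kinases block that reloading by phosphorylating eIF2 under stress, and the 4E-BPs hold eIF4E away from eIF4G. Dividing lymphoma cells use this machinery at a high rate.

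The depth of the cells was read from whole reads recovered from the TPM values. The median per cell was 247586 reads (shLuc #1), 230477 (shLuc #2), 234259.5 (shCTCF #1) and only 131098 (shCTCF #2). The shallowest cell kept, in shCTCF #2, had 41591 reads, 3150 genes and reads of 27 members. Some of the values that it strongly affects are also given without it. Despite fewer reads than in the WT culture of the same number, cells of shCTCF #1 and shCTCF #2 had more genes with reads (medians 6172.5 and 5656) than cells of shLuc #1 and shLuc #2 (4771 and 4635). Ctcf itself had means of 60.3 TPM (shLuc #1) and 37.1 TPM (shLuc #2) in WT and of 16 TPM (shCTCF #1) and 44.9 TPM (shCTCF #2) in CTCF-KD cells. By these means the culture labelled shCTCF #2 was not below its own control, and every difference given below rests on its label. The study checked the knockdown by qPCR and Western blotting, which were not analysed here. Of the T-cell markers, Cd3g, Cd3d, Lck and Ptprc had culture means between 549 and 2922 TPM, Cd3e between 169 and 365 TPM, Thy1 between 129 and 169 TPM, Cd28 between 12.4 and 29.6 TPM and Cd247 between 0.349 and 10.1 TPM. The B-cell markers Cd79b, Ms4a1 and Pax5, the myeloid markers Lyz2 and Mpo, the erythroid markers Hbb-bs and Hba-a2 and the fibroblast markers Pdgfra and Dcn were at 0 throughout. Others of these lists had values. Cd68 had 51.7, 52, 46.4 and 27.6 TPM (WT cultures first), Fcgr3 had 9.28 TPM in shCTCF #2 alone, Cd79a reached 4.13 TPM in shLuc #1, and Csf1r, Itgam, Klf1, Col1a1 and Col1a2 stayed at or below 2.24 TPM. Csf1r was at 0 in both WT cultures and at 1.41 and 1.36 TPM in the CTCF-KD cultures. The summed mean TPM of the 8 T-cell markers was 7757 and 8211 in the WT cultures against 5673 and 5784 in the CTCF-KD cultures, and the part of these markers in the results below was not tested.

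Upstream sequences of 4 members are shown because they hold 1 of the 2 motifs searched and are those whose whole window lay outside the gene's own GENCODE model. They cover 250 bases before the annotated start in RefSeq on GRCm38, on the strand of the gene, with the motif in capitals.
Eif4a1, chr11:69672424-69672673, minus strand, CACGTG at position -189 from the start: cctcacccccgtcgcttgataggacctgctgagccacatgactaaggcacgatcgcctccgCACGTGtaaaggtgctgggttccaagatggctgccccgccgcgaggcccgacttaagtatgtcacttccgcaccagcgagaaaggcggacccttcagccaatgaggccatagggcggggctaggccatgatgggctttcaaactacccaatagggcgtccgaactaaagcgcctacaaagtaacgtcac
Eif3f, chr7:108934165-108934414, plus strand, CACGTG at position -68: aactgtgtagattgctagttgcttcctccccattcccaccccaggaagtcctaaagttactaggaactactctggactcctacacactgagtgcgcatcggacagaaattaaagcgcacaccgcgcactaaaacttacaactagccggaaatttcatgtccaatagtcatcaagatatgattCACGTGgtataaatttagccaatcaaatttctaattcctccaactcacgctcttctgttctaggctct
Eif3k, chr7:28981889-28982138, minus strand, CACGTG at position -44: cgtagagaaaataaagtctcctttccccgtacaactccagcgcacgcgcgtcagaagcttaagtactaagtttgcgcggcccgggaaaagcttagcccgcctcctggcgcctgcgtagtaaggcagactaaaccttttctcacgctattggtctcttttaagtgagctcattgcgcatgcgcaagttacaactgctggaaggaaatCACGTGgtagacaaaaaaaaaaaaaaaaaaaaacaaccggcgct
Eif3d, chr15:77970825-77971074, minus strand, CCGGAAGT at position -71: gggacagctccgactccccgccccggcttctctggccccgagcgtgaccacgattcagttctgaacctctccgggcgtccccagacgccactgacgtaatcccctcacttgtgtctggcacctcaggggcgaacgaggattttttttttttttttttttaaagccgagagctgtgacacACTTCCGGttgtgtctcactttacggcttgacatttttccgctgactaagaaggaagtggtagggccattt
CACGTG, the E-box that Myc and Usf proteins are known to bind, reads the same on both strands. It lay within 250 bases before a start of 8 of the 41 members matched by symbol (19.5%), namely Eif1b, Eif3f, Eif3k, Eif4a1, Eif4e, Eif4g1, Eif4h and Eif5a, against 6.02% of all 32851 windows and 9.93% of the genes tested for expression. CCGGAAGT, an Ets-type motif searched on both strands, lay before a start of Eif3d, Eif3l, Eif4e2 and Eif5a (9.76%), against 2.88% of windows and 7.16% of the genes tested. Of the 8 members with CACGTG, 4 had a log2 change above 0, as Eif4a1 did, and 4 below, as Eif3f and Eif3k did, against 17 above 0 of the 33 matched members without it. Of the 4 with CCGGAAGT, 3 were above 0, against 18 of 37 without it. These counts are a description with no test.

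Eif3i was the most abundant member in every culture but shCTCF #2, where Eif5a was, and the order of the next ones differed between cultures. Eif3k was second in shLuc #1 and Eif3d in shLuc #2. The summed TPM of the 51 members per cell was 10538 ± 1489 (SD, n = 24 cells) in shLuc #1 and 11667 ± 2305 (n = 23) in shLuc #2. It was 11622 ± 1672 (n = 24) in shCTCF #1 and 12594 ± 1982 (n = 24) in shCTCF #2, so the conditions overlapped, while within each experiment the CTCF-KD culture had the higher sum. As a share of recovered reads, with no correction for gene length, the members took 1.02% and 1.11% in the WT and 1.19% and 1.27% in the CTCF-KD cultures, which did not overlap. The Eif3 genes made 58.7% and 58.2% of this sum in the WT cultures and 56% and 52.3% in the CTCF-KD cultures. The Eif5 genes made 6.81% and 9.12% in WT and 11.1% and 14.3% in CTCF-KD cells. Summed over its 3 members, the Eif5 class had means of 717 and 1064 TPM in WT and 1286 and 1800 TPM in CTCF-KD cultures. The Eif1 class also did not overlap, with 571 and 755 TPM in WT against 804 and 984 TPM in CTCF-KD cultures. In both classes shCTCF #1 lay closer to shLuc #2 than the WT cultures lay to each other, and an exact permutation test of 2 against 2 cultures cannot give a p below 0.33.

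**Figure D1:**
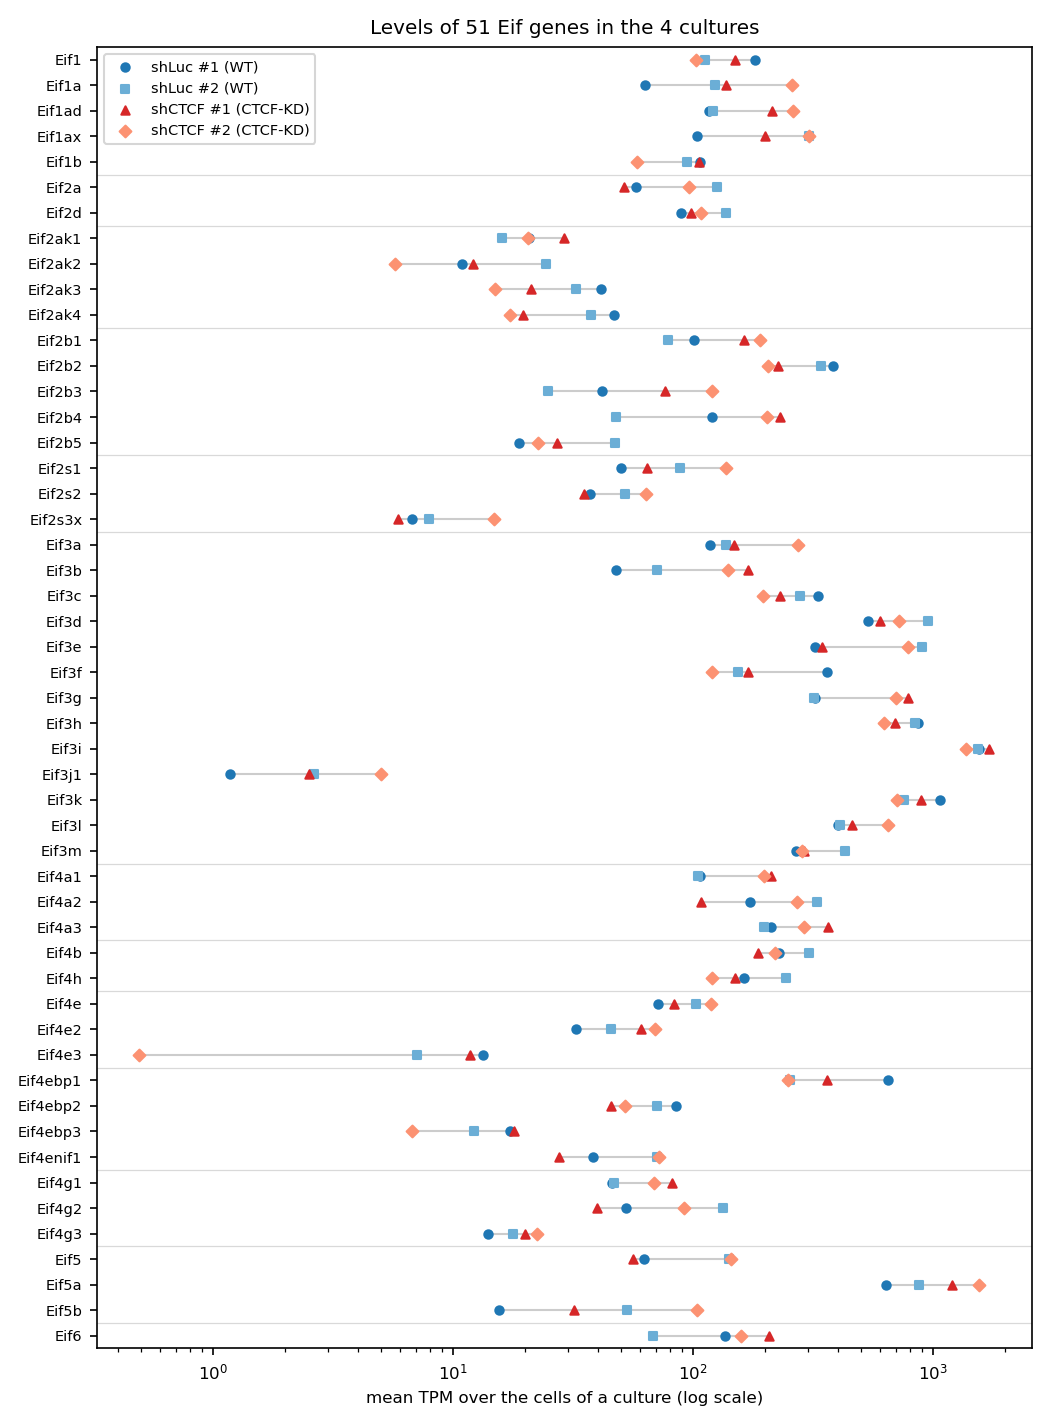
Mean TPM over the cells of each culture (log scale) for the 51 Eif genes, 1 row per gene, with a symbol for each of the 4 cultures and thin lines between groups of factors. Eif3i (1370 to 1718 TPM) and Eif5a (639 to 1553 TPM) lie at the right, and Eif3j1 (1.17 to 4.99 TPM) at the left.

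No initiation factor passed the test of expression between conditions. In limma over the 4 culture means (log2(mean TPM + 1), Benjamini-Hochberg adjustment over 11980 genes), 0 of 51 members had an adjusted p under 0.05, as did 0% of all genes, the lowest adjusted p being 0.585. Without adjustment, at p under 0.05, 8 members were higher and 1 (Eif2b2) was lower in CTCF-KD cells, against 4.79% and 2.82% of all genes. Without the shallowest cell, 7 were higher and 0 lower at that level, counts with no share of all genes to set beside them. Both CTCF-KD cultures lay above both WT cultures for 16 members (19.9% of all genes) and below for 8 (16.9% of all genes), and 27 members overlapped. The first share is above and the second close to that of all genes. The 8 lower members include Eif4b, which overlapped without the shallowest cell. The median log2 change was -0.05 for the members and 0.04 for all genes. The direction of this median depends on the scale. With the mean over cells of log2(TPM + 1), which gives more weight to cells at or near 0, it was 0.39 for members and 0.23 for all genes. Among all genes, that scale gave 0.367% higher and 0.0167% lower with an adjusted p under 0.05 in limma, and 0 members. With cells in place of cultures as replicates, which treats cells of 1 culture as independent, 17 members were higher and 0 lower, against 10.7% and 1.03% of all genes. All changes below are on the scale of culture mean TPM unless stated, from limma, and none of their adjusted p values passed the threshold.

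The eIF1 and eIF1A genes set the accuracy of start codon choice. Eif1, the gatekeeper of the start codon, had 181 and 112 TPM in WT and 150 and 103 TPM in CTCF-KD cultures, which overlapped. Without the shallowest cell (429 TPM) shCTCF #2 had 88.9 TPM of Eif1, and the conditions still overlapped. Eif1ad, a gene with an eIF1A-like domain, had 116 ± 168 and 121 ± 267 TPM (SD over 24 and 23 cells) in the WT cultures, and 212 ± 158 and 260 ± 182 TPM (24 cells each) in the CTCF-KD cultures. Both CTCF-KD cultures were above both WT cultures, with a log2 change of 0.98 (SE 0.33, adjusted p = 0.61). Eif1a had 62.9 and 124 TPM in WT and 137 and 259 TPM in CTCF-KD cultures, which also did not overlap. Eif1ax (104, 304, 200 and 303 TPM in the order shLuc #1, shLuc #2, shCTCF #1, shCTCF #2, used from here on) and Eif1b (107, 94.6, 106 and 58.6 TPM) overlapped. Banf1 overlaps Eif1ad on the other strand, and in the overlapping stretch reads of the pair cannot be told apart, since the sources do not say whether counting used the strand.

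The eIF2 trimer itself was low. Eif2s1, the subunit that the kinases phosphorylate, had 50.0, 88.5, 64 and 137 TPM. Eif2s2 (37.3, 51.8, 34.9 and 63.5 TPM) and the GTP-binding subunit Eif2s3x (6.75, 7.93, 5.89 and 14.8 TPM) were lower still. In each of the 3 subunits the highest value was that of shCTCF #2 and the conditions overlapped. Eif2a (57.6, 125, 51.4 and 96.4 TPM) and Eif2d (88.9, 137, 97.7 and 108 TPM), which can deliver initiator tRNA without eIF2, overlapped as well.

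The exchange factor eIF2B held the members with the 2 highest log2 changes, and its subunits lay in both directions. Eif2b3, its gamma subunit, had 41.8 ± 74, 24.8 ± 51.2, 76.1 ± 62.7 and 120 ± 98.3 TPM (SD over 24, 23, 24 and 24 cells). With all kept cells the log2 change was 1.54 (SE 0.50, adjusted p = 0.60). The shallowest cell had 418 TPM of Eif2b3, and the other 23 cells of shCTCF #2 gave 107 ± 76.8 TPM. Eif2b4, the delta subunit, had 120 ± 174, 47.6 ± 67.3, 229 ± 185 and 204 ± 270 TPM, a log2 change of 1.5 (SE 0.50, adjusted p = 0.61). For both genes the CTCF-KD cultures were above the WT cultures without overlap, while the SD over WT cells was above their mean. Eif2b1, the regulatory alpha subunit, also did not overlap, with 101, 78.9, 163 and 191 TPM. Eif2b2, the beta subunit, lay in the other direction with 383 ± 387, 340 ± 472, 226 ± 189 and 205 ± 195 TPM, a log2 change of -0.74 (SE 0.30, adjusted p = 0.65). Its direction turned with the scale. As the mean of log2(TPM + 1) the change was 0.38, and it was detected in 21 of 24 and 17 of 23 WT cells but in 23 of 24 cells of each CTCF-KD culture. Eif2b5, the catalytic subunit, was the lowest of the complex in 3 of 4 cultures, with 18.7, 47, 27.1 and 22.6 TPM, and overlapped. Eif2b4 overlaps Snx17 on the other strand, so reads in the overlapping stretch may be those of Snx17.

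The 4 eIF2 kinases were low, and those that sense amino acid shortage and endoplasmic reticulum stress were lower in CTCF-KD cultures. Eif2ak4 (GCN2, the sensor of uncharged tRNA) had 46.6 ± 59.1, 37.4 ± 62.5, 19.5 ± 45.1 and 17.3 ± 35.8 TPM, a log2 change of -1.14 (SE 0.55, adjusted p = 0.70). Eif2ak3 (PERK, the sensor of unfolded protein) had 41.5 ± 58.4, 32.6 ± 73.5, 21.1 ± 47.3 and 14.9 ± 25.6 TPM, a log2 change of -1.01 (SE 0.59, adjusted p = 0.75). Neither overlapped between conditions, but the spread over cells was above the mean in each culture, and the differences did not pass the test. Eif2ak1 (HRI, the heme-regulated kinase) had 20.7, 15.9, 29.1 and 20.4 TPM and Eif2ak2 (PKR, activated by double-stranded RNA) 10.9, 24.4, 12 and 5.73 TPM. Both overlapped.

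The eIF3 complex spanned the widest range of levels, from Eif3i with 1546, 1535, 1718 and 1370 TPM to Eif3j1, a loosely bound subunit, with 1.17, 2.64, 2.51 and 4.99 TPM. Eif3g, an RNA-binding subunit, had 323 ± 306, 319 ± 276, 783 ± 369 and 703 ± 420 TPM. The WT cultures were almost equal and both CTCF-KD cultures above them, and the log2 change of 1.21 (SE 0.28, adjusted p = 0.585) had the highest statistic of the members. Eif3b, a scaffold subunit, followed with 47.7 ± 83.5, 70.7 ± 133, 169 ± 199 and 140 ± 118 TPM, a log2 change of 1.39 (SE 0.40, adjusted p = 0.585). Eif3a (118, 137, 147 and 274 TPM) and Eif3l (403, 411, 458 and 652 TPM) were the other subunits without overlap on the higher side.
Eif3c, the partner of Eif3a in the core, was lower without overlap, with 331 ± 270, 280 ± 304, 231 ± 111 and 195 ± 132 TPM (log2 change -0.52, SE 0.31, adjusted p = 0.76). Without the shallowest cell (584 TPM) shCTCF #2 had 178 ± 105 TPM of Eif3c. Eif3h, with 867, 839, 695 and 624 TPM, was also lower in both CTCF-KD cultures. Eif3d (538, 954, 602 and 723 TPM), which can bind the cap, Eif3e (322, 900, 343 and 785 TPM), Eif3f (360, 153, 170 and 120 TPM), Eif3k (1065, 754, 894 and 709 TPM) and Eif3m (268, 430, 290 and 286 TPM) overlapped. For Eif3d, Eif3e, Eif3f, Eif3k and Eif3m the WT cultures differed from each other by more TPM than the means of the conditions did. Subunits of 1 complex thus did not differ in a common direction: of 13, 4 were higher, 2 lower and 7 overlapped. Among all genes 19.9% were higher and 16.9% lower without overlap, and no subunit passed the test.

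**Figure D2:**
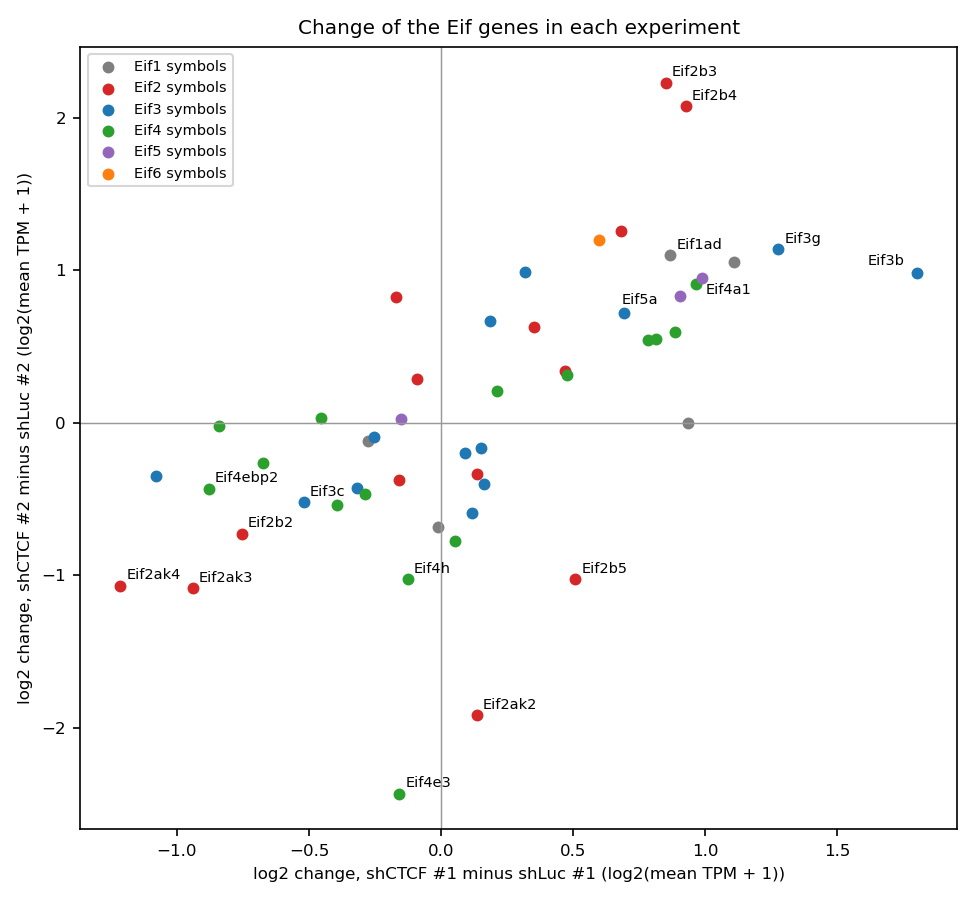
Log2 change of each Eif gene, CTCF-KD minus WT culture, in experiment 1 (horizontal axis) and experiment 2 (vertical axis), coloured by class. Of 51 members, with the shallowest cell included, 21 lie above 0 in both experiments, 17 below in both and 13 have opposite signs.

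Of the 3 eIF4A helicase genes, 2 lay above WT in both CTCF-KD cultures. Both genes of helicase cofactors lay below WT, Eif4b only with the shallowest cell included. Eif4a1 had 107 ± 71.2, 104 ± 63.4, 210 ± 68.1 and 197 ± 195 TPM, with reads in every cell, a log2 change of 0.94 (SE 0.33, adjusted p = 0.61). The shallowest cell of shCTCF #2 had 1088 TPM, and the other 23 cells of that culture, between 56.7 and 277 TPM, gave 158 ± 48.2 TPM and a log2 change of 0.78, still without overlap. Eif4a3, the helicase of the exon junction complex, had 211, 198, 363 and 289 TPM, again without overlap. Eif4a2, the second cytoplasmic helicase, overlapped (172, 327, 107 and 272 TPM). Of the cofactors that stimulate the helicase, Eif4h had 163 ± 162, 244 ± 313, 149 ± 145 and 119 ± 117 TPM (log2 change -0.58, SE 0.37, adjusted p = 0.78) and Eif4b 228, 304, 186 and 220 TPM. Neither overlapped with all kept cells. The shallowest cell had no Eif4b read, and without it shCTCF #2 had 229 TPM, above shLuc #1, so that Eif4b overlapped. The Eif4h change was 0.10 as the mean of log2(TPM + 1).
The cap-binding gene Eif4e overlapped, with 71.5, 102, 82.9 and 118 TPM. Its relative Eif4e2, linked to repression, had 32.4, 45.6, 60.8 and 69.4 TPM and did not overlap. Eif4e3 was read in 15 cells only, with 13.3, 7.05, 11.8 and 0.492 TPM. The scaffold Eif4g1 had 46 ± 84.9, 46.8 ± 54.9, 81.5 ± 54.2 and 68.9 ± 53.2 TPM, above WT in both CTCF-KD cultures. Eif4g3 (14, 17.7, 19.9 and 22.3 TPM) did not overlap either, while Eif4g2, which lacks the eIF4E site, did (52.6, 134, 39.8 and 91.5 TPM).
None of the genes for eIF4E-binding proteins was higher in both CTCF-KD cultures. Eif4ebp1, a target of mTOR, had 647, 253, 360 and 249 TPM, and shLuc #1 stood apart from the other cultures. Eif4ebp2 had 84.5 ± 129, 70.7 ± 129, 45.4 ± 75.2 and 52.2 ± 82.9 TPM, lower in both CTCF-KD cultures (log2 change -0.66, SE 0.42, adjusted p = 0.78). Eif4ebp3 (17.2, 12.2, 17.9 and 6.74 TPM) and the shuttling protein gene Eif4enif1 (38.3, 70.4, 27.6 and 71.9 TPM) overlapped.

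Among the late factors, Eif5a had the highest level in every culture. It encodes the hypusine-containing protein that helps ribosomes through difficult peptide bonds, and it had 639 ± 381, 870 ± 548, 1198 ± 429 and 1553 ± 709 TPM. It was read in every cell and did not overlap between conditions (log2 change 0.87, SE 0.32, adjusted p = 0.61). Eif6, which keeps the large subunit apart until it is mature, had 136, 68.2, 207 and 158 TPM, also without overlap. Eif5 (62.6, 141, 56.3 and 143 TPM) and Eif5b (15.6, 53.2, 31.8 and 104 TPM) had both #2 cultures above both #1 cultures. Within the experiments Eif5b was higher in CTCF-KD cells by a log2 change of 0.99 and 0.95, the latter with the shallowest cell (810 TPM), without which shCTCF #2 had 73 TPM. The log2 changes of Eif5 were -0.15 and 0.03. Without the shallowest cell shCTCF #2 had 135 TPM of Eif5, below shLuc #2.

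**Figure D3:**
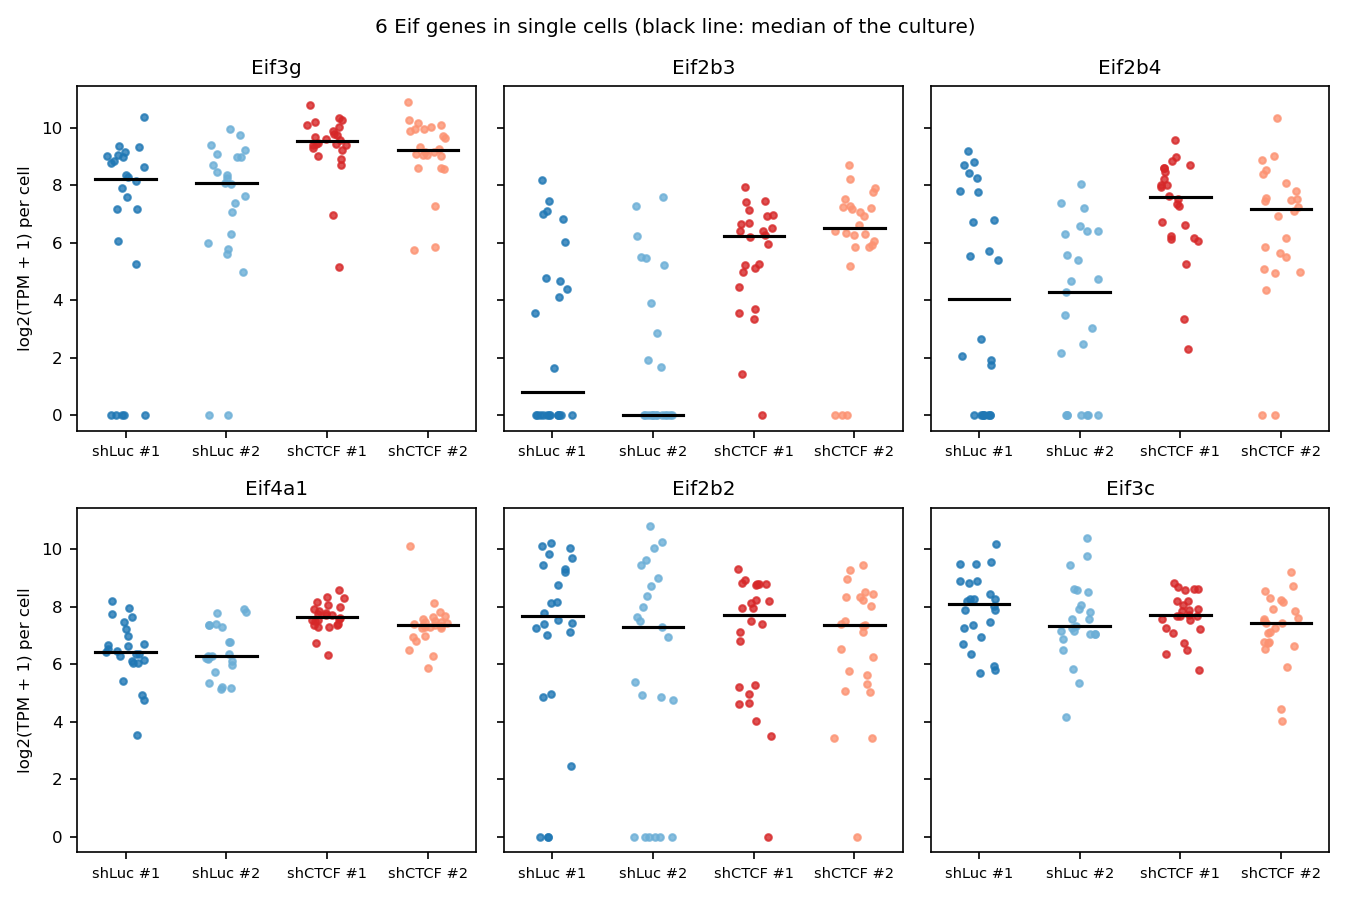
Values of 6 Eif genes in single cells as log2(TPM + 1), 1 point per cell and 1 column per culture (24, 23, 24 and 24 cells), with the culture median as a black line. For Eif2b3 and Eif2b4 the points at 0 are common in WT and few in CTCF-KD cells. Eif3g is at 0 in a minority of WT cells and in no CTCF-KD cell. Eif4a1 is shifted as a whole, and Eif2b2 has WT cells both at 0 and above those of CTCF-KD cells.

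Initiation factors were read in more cells of the CTCF-KD cultures, by value. A median cell held reads of 40 and 39 members in the WT cultures and of 45.5 and 43.5 members in the CTCF-KD cultures. After each cell was thinned to 80000 reads (1 cell of shCTCF #2 was shallower and left out), these medians were 38, 37, 44 and 43. The thinned share of cells with a read was above both WT cultures in both CTCF-KD cultures for 25 members, against 38.8% of all genes tested, and below for 0 members, against 4.70%. Without thinning it was above for 22 members, a count with no share of all genes to set beside it. The median thinned difference was 8.79 percentage points for the members and 6.34 points for all genes.
Eif2b3 had the largest difference, with 45.8% and 34.8% of thinned WT cells and 91.7% and 87% of thinned CTCF-KD cells. Unthinned it was read in 12 of 24 cells of shLuc #1 (50.0%, exact Clopper-Pearson 95% interval 29.1% to 70.9%), 10 of 23 of shLuc #2 (23.2% to 65.5%), 23 of 24 of shCTCF #1 (78.9% to 99.9%) and 21 of 24 of shCTCF #2 (67.6% to 97.3%). Eif6 (54.2%, 43.5%, 87.5% and 82.6% of thinned cells), Eif2b4 (58.3%, 56.5%, 100% and 87%) and Eif4g1 (66.7%, 69.6%, 100% and 100%) came next. Eif2ak2 had 50.0%, 60.9%, 62.5% and 30.4%, with the highest value in shCTCF #1 and the lowest in shCTCF #2. Genes in general were read in more thinned cells after knockdown, with medians of 4174.5, 3983, 5242 and 5240 genes per cell, and the part of this in the results on single members was not tested.

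**Figure D4:**
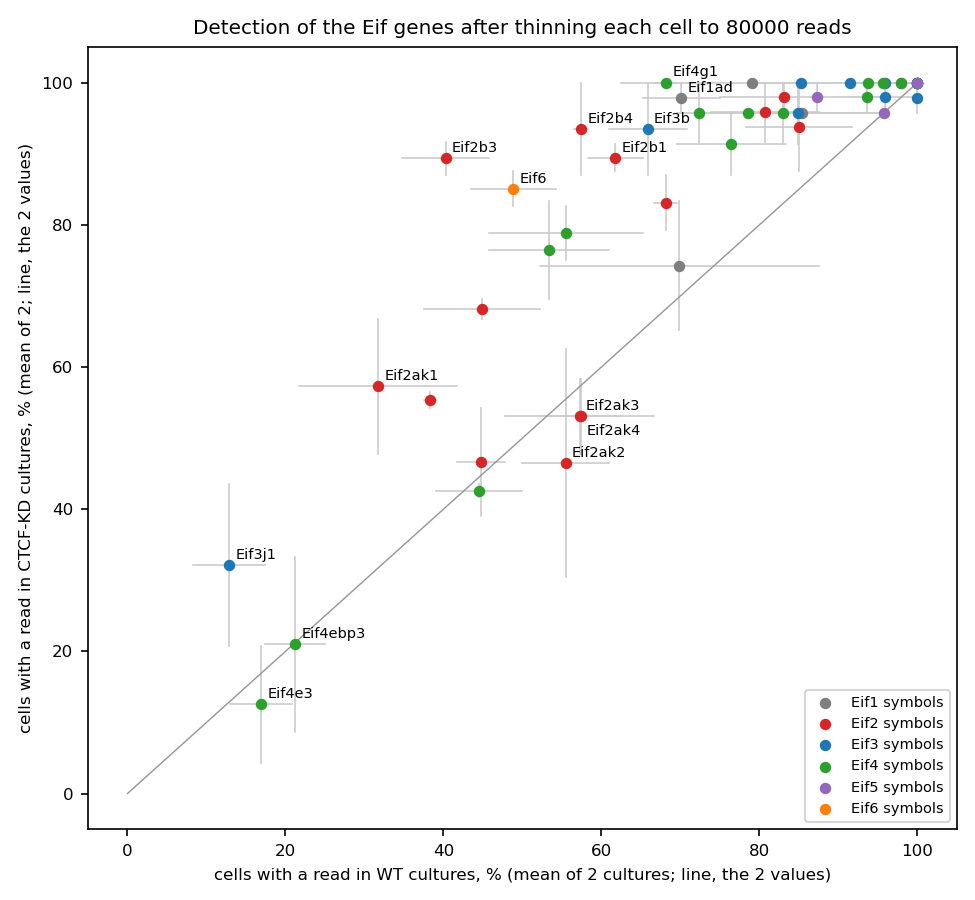
Percent of cells with a read of each Eif gene after thinning to 80000 reads, WT (horizontal) against CTCF-KD (vertical), as the mean of 2 cultures with lines spanning the 2 values. Most members lie above the diagonal, Eif2b3 farthest at 40.3% against 89.3%, and members read in all cells meet at the upper right corner.

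Cell-to-cell variation was lower by value in CTCF-KD cells for most initiation factors, at a share close to that of all genes. The CV of a gene was its SD divided by its mean, both of log2(TPM + 1) in all cells of 1 condition, and had a median of 0.523 in WT and 0.271 in CTCF-KD cells for the 50 members above a mean of 1. It was lower in 41 of these 50 members and in 81.5% of all 7843 genes. The median difference was smaller in size for the members (-0.146) than for all genes (-0.216), whose medians were 1.07 and 0.801. By the study's rule, which calls a gene when its CV difference lies over 1 SD from the mean of all genes (below -0.685 or above 0.127) and has no error control, 2 members were decreased, against 11.3% of all genes, and 2 were increased, against 7.68%.
Eif2b3 went from 1.21 to 0.384 and Eif3j1 from 1.91 to 1.15, and these were the decreased members. Eif2ak2 went from 0.920 to 1.06 and Eif4ebp3 from 1.41 to 1.57, and these were the increased members with all kept cells. Without the shallowest cell the CV in CTCF-KD cells was 1.04 for Eif2ak2 and 1.55 for Eif4ebp3. With the limits kept as above, Eif2ak2 then lay inside them and Eif4ebp3 still beyond. Inside the limits, the next lowest differences were those of Eif2ak1 (1.37 to 0.821) and Eif6 (1.00 to 0.460), and the next highest those of Eif3k (0.0950 to 0.169) and Eif4a2 (0.160 to 0.222). For Eif2ak2, Eif4ebp3 and Eif3k only shCTCF #2 had a CV above both WT cultures, with 1.48, 2.77 and 0.232 against 0.785, 1.09 and 0.0734 in shCTCF #1. The value of Eif3k rests on the shallowest cell, the only one of the culture with no Eif3k read, and without it the CV was 0.0895 in shCTCF #2 and 0.0822 in CTCF-KD cells, below that in WT cells. That of Eif4a2 in CTCF-KD cells was then 0.165.

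With the CV taken per culture, 5 members fell. In limma over the 4 culture CVs, adjusted over 7823 genes, they were Eif2b3, Eif4g1, Eif1ad, Eif2b4 and Eif3g, against 4.14% of all genes lower, and 0 members were higher, against 0.0639% of all genes. Eif2b3 had CVs of 1.13 and 1.33 in the WT and 0.354 and 0.410 in the CTCF-KD cultures, a difference of -0.85 (SE 0.16, adjusted p = 0.036). Eif4g1 had 0.732 and 0.623 in the WT and 0.202 and 0.233 in the CTCF-KD cultures (difference -0.46, SE 0.087, adjusted p = 0.036). For Eif1ad the CVs were 0.680, 0.746, 0.218 and 0.281 (adjusted p = 0.038), for Eif2b4 0.895, 0.789, 0.243 and 0.385 (adjusted p = 0.042) and for Eif3g 0.549, 0.369, 0.123 and 0.138 (adjusted p = 0.043), all from limma. All 5 had a higher mean of log2(TPM + 1) in CTCF-KD cells, for Eif2b3 5.74 against 2.41. With the experiment as a replicate block, 16 members fell, against 19.9% of all genes. Without the shallowest cell 10 fell, against 8.06% of all genes, and 0 rose, against 0.0766%. The added members were Eif2b1, Eif3l, Eif4a3, Eif4e2 and Eif6. The calls were lost (0 members) where the CV was divided by that of genes of like mean, with linear TPM, with a pseudocount of 10, with no filter on low values, and without either CTCF-KD culture. Both CTCF-KD cultures had a lower CV than both WT cultures for 28 members, against 53.9% of all genes, and a higher CV for 0 members, against 4.90%.

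**Figure D5:**
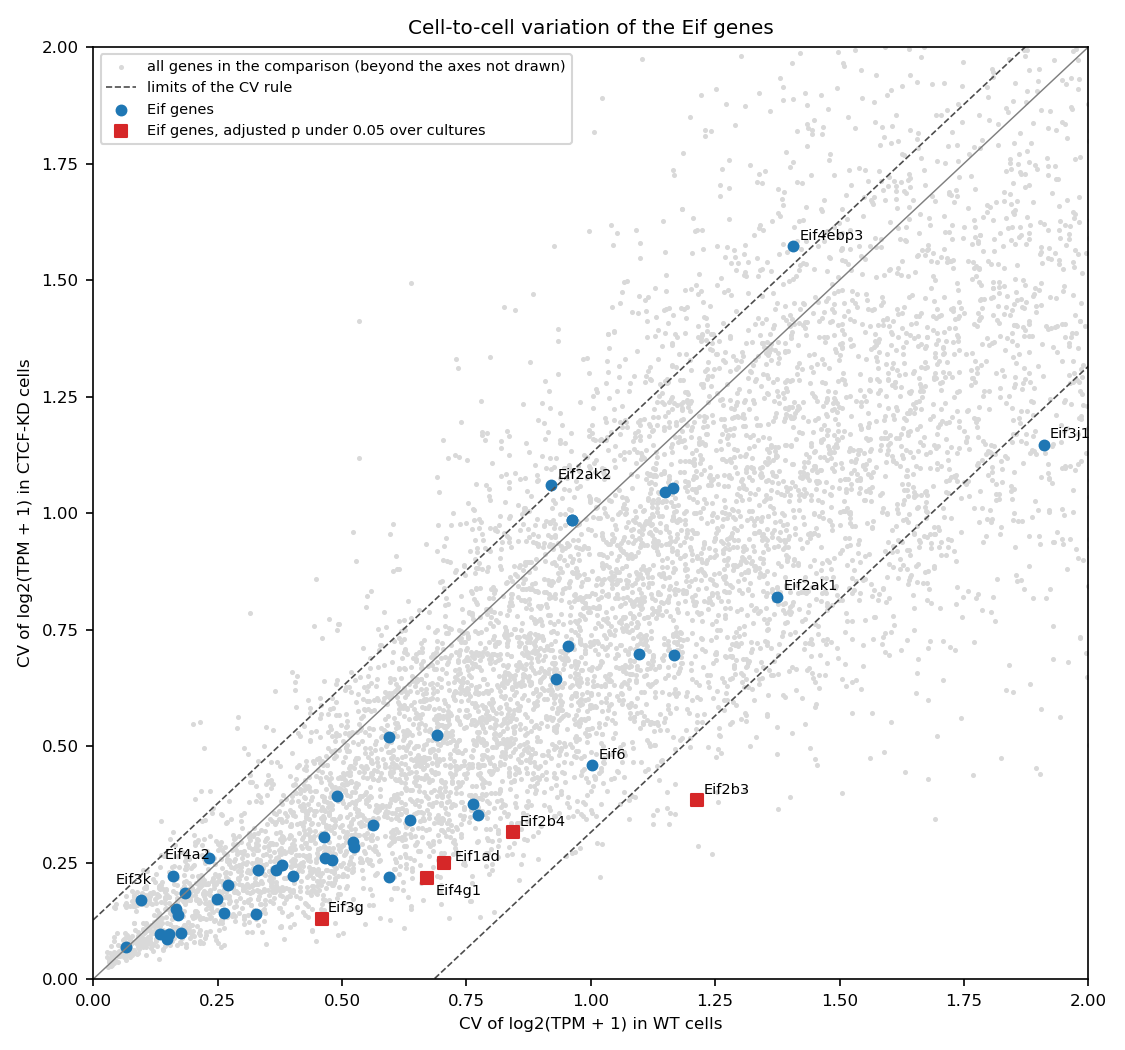
CV of log2(TPM + 1) over WT cells (horizontal) and CTCF-KD cells (vertical) for 50 Eif genes and, in grey, all genes, of which 843 lie beyond the axes; dashed lines mark the limits of the CV rule (-0.685 and 0.127). Most members lie below the diagonal, and the squares are the 5 members called by limma over cultures.

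The other genes of the pathway also gave 0 calls in expression. Of 19 partners of initiation, 4 were higher without overlap and 3 lower, against 19.9% and 16.9% of all genes. Lower were the poly(A)-binding protein gene Pabpc1 (1230, 1169, 783 and 730 TPM), its inhibitor Paip2 (322, 524, 275 and 237 TPM) and Dap. Higher were Denr, a recycling factor (18, 46.5, 76.7 and 101 TPM), Bzw1, Bzw2 and Dohh, the enzyme that completes hypusine on eIF5A (21.9, 8.23, 125 and 26.2 TPM). Of 13 kinases and phosphatases tested, 2 were higher and 2 lower without overlap. Ppp1r15a, which brings a phosphatase to eIF2, had 345, 361, 171 and 143 TPM (log2 change -1.17, SE 0.31, adjusted p = 0.585 in limma). Of 16 factors of elongation and termination tested, 7 were higher and 2 lower without overlap, the lower ones including Eef1a1 (5553, 6155, 4001 and 4392 TPM). In the CV of cultures, limma called 3 of 18 initiation partners, 0 of 12 kinases and phosphatases and 3 of 16 elongation and termination factors lower, against 4.14% of all genes, and 0 higher, against 0.0639%.

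Levels of several members are uncertain because other genes share their sequence. Of the 31-base stretches of the GENCODE transcripts of Eif4a1, 67.5% occur in transcripts of other genes, mainly pseudogenes. The share was 53.7% for Eif3m, 44.8% for Eif4a3, 42% for Eif3e and 41.3% for Eif3j1, which Eif3j2 resembles. For Eif4ebp3 it was 66.4%, all shared with AC115631.1. That gene overlaps Eif4ebp3 on the same strand, so these stretches need not be a copy elsewhere in the genome. The share was 0% for Eif3g, Eif2b2, Eif2b3 and Eif2b4. Since only uniquely mapped reads were counted, stretches with a copy elsewhere in the genome lower a level, and a difference between cultures can come from either gene. In GRCm38 (GENCODE M21), Eif2b3 lies at chr4:117019402-117087306 on the plus strand, Eif2b4 at chr5:31187558-31193430 on the minus strand, Eif3g at chr9:20894349-20898623 on the minus strand and Eif4g1 at chr16:20668313-20692884 on the plus strand.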

How the data were processed

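The authors aligned reads of single EL4 cells to GRCm38 with STAR, counted uniquely mapped reads per RefSeq gene with HTSeq and deposited values of 96 cells as TPM, scaled for the length of a gene and the total of its cell. The authors removed wells with no or double cells. No molecular identifiers are described, so intervals cover counting error only.

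One cell with 81 genes was left out (minimum 3000 genes), which left 47 WT and 48 CTCF-KD cells. TPM values of a gene were turned into whole reads through the smallest step they share, with a tolerance of 0.001. Culture means were compared with limma 3.58.1 (R 4.3.3, trend, Benjamini-Hochberg adjustment, threshold 0.05, pseudocount 1) over genes for which 2 or more cells had log2(TPM + 1) above 1, and CVs over genes with a mean above 1. Read recovery, limma and the CV rule were tried on simulated data, and no count model was fitted. The simulated cultures for limma and the CV rule were all drawn from the same WT cells. They thus held no differences between cultures of a condition beyond the draw of cells. The culture number pairs the samples, since by the study's methods number 1 was the initial and number 2 the later knockdown experiment, and deviations of same-numbered cultures had a correlation of 0.175 over 11980 genes. Nothing says that cells came from more than 1 culture per group and experiment.

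The members, the other lists and the tests were chosen with earlier results of these data known. Levels are given for the main proteins of each factor and their regulators, fold changes for the 6 highest and 6 lowest limma statistics (with Eif5a, added after its values were seen), and CVs for the 4 largest differences each way and every call. Coordinates are from GENCODE M21 and upstream sequences from RefSeq. Shared sequence was counted in stretches of 31 bases. Python 3.11.15 was used. Alternatives covered scale, pseudocount, filters, scaling, thinning, the replicate block, cells as replicates, each culture left out and, chosen after seeing the data, the shallowest cell left out. A pair of markers of other cell types is not reported here.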

Additional observations from a re-analysis of the deposited data

Results flagged for a closer look

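For 13 of the 51 members, the CTCF-KD culture lay above its WT culture in 1 experiment and below it in the other. This count and the values below include the shallowest cell. Without it, shCTCF #2 had 317 TPM of Eif1ax and 135 TPM of Eif5, above and below shLuc #2. Both genes then had the same sign in both experiments, while Eif4ebp1 (260 TPM in shCTCF #2, above shLuc #2) had opposite signs. With 1 culture per condition in each experiment, the difference between experiments was not tested. The log2 change in experiment 1 minus that in experiment 2 was 2.05 for Eif2ak2 (0.135 and -1.92 in the 2 experiments) and 1.53 for Eif2b5 (0.508 and -1.02). It was 0.937 for Eif1ax, 0.824 for Eif4ebp3, 0.703 for Eif3m, 0.563 for Eif3d, 0.473 for Eif2d, 0.317 for Eif3i and 0.287 for Eif3e. It was -0.995 for Eif2s3x (-0.17 and 0.825), -0.486 for Eif4enif1, -0.378 for Eif2s2 and -0.177 for Eif5. The culture labelled shCTCF #2 had the fewest reads per cell and a Ctcf level not below its control, and the part of either was not tested.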

How the results depend on the processing

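With 2 cultures per condition, no gene passed the test on culture mean TPM, the highest log2 change of members (1.54) included. The lack of calls thus does not show that levels were equal. The culture shCTCF #2, with a median of 131098 reads per cell, gives the least precise values for low members. The count of members with an adjusted p under 0.05 in expression stayed at 0 in each direction under every alternative over cultures, the replicate block included. It was 17 higher with cells as replicates, which are not independent, against 10.7% of all genes higher and 1.03% lower. The median log2 change was 0.394 where log2(TPM + 1) was averaged over cells, with 3 members below WT without overlap. It was 0.400 with cells as replicates and 0.0464 in RPM. For this median, RPM were recovered reads summed over the cells of a culture and scaled to the culture's total, with no length. Eif2b2 turned to 0.382 and 0.370, and Eif4h to 0.0966 and 0.104, with the mean of logs and with cells as replicates. The cause was not tested. Leaving out each culture gave medians of -0.0484 to 0.461 (highest without shCTCF #1), 17 to 26 members above and 14 to 18 below, as fewer cultures overlap less. No share of all genes stands beside these counts without overlap.

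The median difference in detection was 5.34 points unthinned, 8.42 with TPM above 10, 8.79 thinned to 80000 reads and 8.42 thinned to 40000. It was 2.94 in cells with at least 4000 genes and 4.35 to 8.51 without each culture, with 25 to 31 members above. These counts have no share of all genes beside them.

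For the CV rule, decreased and increased members numbered 1 and 1 in experiment 1 alone (median -0.174), 4 and 4 with the mean above 1 in both conditions, 0 and 0 with no filter, and 10 and 4 with the CV over that of genes of like mean (median -0.0487). Decreased were 1 with linear TPM (median -0.259) and 13 with a pseudocount of 10 (median -0.0619), and increased 0 after thinning (median -0.214). Without each culture, 1 to 2 were decreased and 0 to 2 increased (medians -0.189 to -0.134). The limma count of 5 lower CVs was 16 with the replicate block, 0 with linear TPM, a pseudocount of 10, no filter or the CV relative to genes of like mean, where Eif2b4 turned to 0.0027 and Eif3g to 0.0347. It was 0 without shCTCF #1 or shCTCF #2, 7 without shLuc #1, 4 without shLuc #2 and 10 without the shallowest cell, an alternative chosen after seeing the data that changed no other count of members with an adjusted p under 0.05. The replicate block changed no other call. Apart from the replicate block and the shallowest cell left out, whose shares are given above, these alternatives have no share of all genes beside them. Their counts describe the members alone.

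Log2 ratios of class sums moved for Eif1 (0.431 to 0.701 in RPM), Eif3 (0.0123 to 0.102 in RPM), Eif4 (-0.0858 to -0.0255 in RPM and -0.0403 with medians over cells) and Eif6 (0.835 to 2.69 with medians). Without each culture they ranged from 0.243 to 0.647 for Eif1, 0.0215 to 0.228 for Eif2, -0.0524 to 0.0800 for Eif3, -0.119 to -0.0532 for Eif4, 0.530 to 1.10 for Eif5 and 0.420 to 1.42 for Eif6.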
